A study of Mus musculus with 22 samples.

Results

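A set of 92 genes, out of 24422 entries in the count table, was almost silent in wild-type mouse hepatocytes. These genes were read in hepatocytes of mice mutant for Ezh1 and Ezh2, which encode Polycomb methyltransferases. A gene entered the set when its counts summed to 3 or less over all 9 wild-type libraries and reached 5 or more in at least 4 of the 6 mutant libraries of 2 months. In all, 135 genes met these limits. Of them, 43 were set aside because their symbols start like those of several large families, among them the patterning families Hox, Pax, Lhx, Irx, Zic, Tbx, Sox, Dlx and Nkx, the Wnt pathway, Cdkn, collagens and the detoxifying families Cyp2, Gst, Ugt and Sult. The 92 that remain are called members. The members were selected on their raw counts in the wild-type libraries of both ages and the mutant libraries of 2 months. The difference between those groups therefore picked the members and is only described. Mutant libraries of postnatal day 14, and differences between the sexes, played no part in the choice.

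The series measured polyadenylated RNA of hepatocytes, the parenchymal cells of the liver, in 22 libraries. Wild-type mice (labelled Wt) gave 3 male and 2 female libraries at postnatal day 14 (P14) and 2 male and 2 female libraries at 2 months (M2). Mutant mice of the genotype Alb-Cre;Ezh1-/-;Ezh2f/f gave 2 male and 5 female libraries at P14 and 3 male and 3 female libraries at M2. By this genotype, Ezh1 is deleted in every cell of the mutants. The floxed Ezh2 is meant to be removed by Cre driven from the albumin promoter, which is active in hepatocytes. Wild-type animals are thus controls neither for Alb-Cre alone nor for the Ezh1 deletion alone. Replicates are marked bio and numbered in the labels, which leave unsaid whether they came from different animals. The 6 M2 mutant libraries carry labels of another format than the other 16, so being an M2 mutant and any batch that goes with those labels cannot be told apart.

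EZH1 and EZH2 are the alternative catalytic subunits of Polycomb repressive complex 2 (PRC2), which methylates histone H3 at lysine 27. The mark keeps genes silent in lineages where they are not used, and the genes that carry it are known to include many regulators of embryonic patterning. Its classic targets have promoters rich in the dinucleotide CG.

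The 250 bases upstream of the most 5′ listed start are given for 5 members that stand for different patterns described below. They are 5′ to 3′ on the gene's strand from RefSeq on GRCm38.p6, with every CG in capitals. Foxl2, a forkhead factor of the ovary and eyelid that was read together with its antisense RNA, has this window at chr9:98955357-98955606 on the plus strand. Dmrta2, a factor of the developing cortex read at both ages, has it at chr4:109977775-109978024 on the plus strand. Oxtr, the oxytocin receptor, read mostly at M2, has it at chr6:112489826-112490075 on the minus strand. Tmeff2, a transmembrane protein with follistatin-like domains that was higher in M2 males, has it at chr1:50927273-50927522 on the plus strand. Adh6a, an alcohol dehydrogenase with no count in any P14 mutant library, has it at chr3:138313036-138313285 on the plus strand.
Foxl2: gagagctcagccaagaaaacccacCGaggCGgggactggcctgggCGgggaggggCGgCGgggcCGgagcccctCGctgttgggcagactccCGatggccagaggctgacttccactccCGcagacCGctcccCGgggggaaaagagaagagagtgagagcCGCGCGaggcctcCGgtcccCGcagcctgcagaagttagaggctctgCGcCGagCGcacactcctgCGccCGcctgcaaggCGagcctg
Dmrta2: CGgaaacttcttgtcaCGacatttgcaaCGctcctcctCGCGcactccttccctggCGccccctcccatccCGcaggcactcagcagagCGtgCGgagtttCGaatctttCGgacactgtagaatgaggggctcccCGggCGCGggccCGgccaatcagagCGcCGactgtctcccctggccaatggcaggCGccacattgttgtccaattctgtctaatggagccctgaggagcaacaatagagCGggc
Oxtr: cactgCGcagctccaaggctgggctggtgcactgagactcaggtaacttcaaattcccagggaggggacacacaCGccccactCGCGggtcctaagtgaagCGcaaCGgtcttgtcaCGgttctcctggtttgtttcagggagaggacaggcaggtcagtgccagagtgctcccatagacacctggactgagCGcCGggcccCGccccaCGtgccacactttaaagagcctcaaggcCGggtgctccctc
Tmeff2: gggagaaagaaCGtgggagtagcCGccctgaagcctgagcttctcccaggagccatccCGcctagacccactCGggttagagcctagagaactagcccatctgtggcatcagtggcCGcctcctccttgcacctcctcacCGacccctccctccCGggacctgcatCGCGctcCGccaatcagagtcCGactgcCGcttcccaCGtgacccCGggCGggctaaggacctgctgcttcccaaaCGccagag
Adh6a: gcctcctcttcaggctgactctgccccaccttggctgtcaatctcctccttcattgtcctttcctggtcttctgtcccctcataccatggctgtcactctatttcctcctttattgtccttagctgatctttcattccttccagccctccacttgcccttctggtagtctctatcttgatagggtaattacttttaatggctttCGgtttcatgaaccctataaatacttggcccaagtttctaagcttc
These windows hold 22 CG in Foxl2, 19 in Dmrta2, 12 in Oxtr, 16 in Tmeff2 and 1 in Adh6a. Other members differ widely, for example with 0 CG in Sprr1a, 1 in Sp8, 24 in Emx2 and 46 in Nudt10. Nothing about the CG content of the set is therefore read from the 5 windows shown. Over all 27025 windows of the table, 91.7% hold a CG in the same 250 bases and the median is 6. A promoter table was used that holds 57 of the 92 members (62.0%), under the 80% needed, so a comparison of CG content between members and other genes is void and none is given.

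The targeted genes were read as a check of the labels, in lowest and highest values per group. Ezh1 ran from 9.40 to 11.0 CPM in P14 wild type and from 0.466 to 1.37 in P14 mutants, and from 7.63 to 10.6 and from 1.04 to 2.13 at M2, with no overlap. Ezh2 ran from 7.22 to 9.99 CPM in P14 wild type and from 3.69 to 7.36 in P14 mutants, and from 2.98 to 5.63 and from 3.08 to 5.30 at M2. The Ezh2 ranges overlapped at both ages. Counts are per gene, so the floxed part was not read apart, and the removal of Ezh2 was not checked.

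Silence in wild type was near complete but not absolute. Of the 92 members, 38 had no count in any wild-type library, and no member passed 0.193 CPM in any of them. CPM is a gene's count scaled to a fixed library size, with library totals scaled by the trimmed mean of M-values (TMM), and it is not divided by transcript length, so levels are compared within a gene and not between genes. Summed over the members, the wild-type libraries reached 0.532 to 1.02 CPM at P14 and 0.596 to 1.02 CPM at M2. The P14 mutant libraries reached 41.0 to 72.5 CPM, with a median of 48.5, and the M2 mutant libraries 104 to 182 CPM, with a median of 138. The P14 mutants therefore lay between the wild types and the M2 mutants, with no overlap with either. The wild-type and M2 mutant ends of that order come from the rule.

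Levels in M2 mutants were low. Mean levels over the 6 libraries ran from 0.302 to 9.34 CPM, with a median of 0.880, and 52 members stayed below 1 CPM, 25 lay from 1 to 3 and 15 reached 3 or more. The 10 members with the most reads held 41.5% of the summed CPM. At least 5 counts were reached in all 6 M2 mutant libraries by 43 members, and 85 had some count in all 6. Against the rule's limits, 16 members had exactly 3 wild-type counts (for example 2610307P16Rik at 0.501, 9130024F11Rik at 0.360 and Actc1 at 0.399 CPM in M2 mutants). Another 11 genes were just outside with 4 (Cap2 at 0.820, Chrm3 at 2.09 and Esrp1 at 0.536 CPM). On the mutant side 25 members had 5 or more counts in exactly 4 libraries (median 0.478 CPM), among them 2610100L16Rik at 0.406 and 6030419C18Rik at 0.537 CPM. Just outside were 33 genes read in 3 libraries (median 0.358 CPM), among them 2610035F20Rik at 0.217, 2900092D14Rik at 0.395 and 3110039M20Rik at 0.245 CPM. Values on both sides of each limit overlap, so the edge of the set is a counting limit.

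P14 mutants already held part of the set. With no use made of these libraries in the choice, 36 of 92 members (39.1%) had 5 or more counts in at least 4 of the 7 P14 mutant libraries, 16 of them in all 7. A further 26 reached 5 counts in 1 to 3 libraries and 30 in none. Among the 8908 other genes with as low a wild-type sum, 9 did so (0.101%). By the rule those genes reached 5 counts in at most 3 of the 6 M2 mutant libraries, and so were picked to differ from the members. The 43 genes set aside by symbol gave 20 (46.5%). Counts scaled down to the smallest of all libraries left 15 members (16.3%) in at least 4 libraries and 53 in none. Leaving out P14 mutant male 2 or female 4 left 28, an alternative added after the data were seen. In 43 members (46.7%) all 7 P14 mutant libraries lay above all 5 P14 wild-type libraries in CPM, against 6.85% of the 13493 genes tested. The wild-type side of that separation was fixed by the rule. Of the 77 members that passed the filter on low counts, 48 were called higher in P14 mutants than in wild type, where 11.8% of all tested genes were called higher, and 0 were called lower, where 6.89% were. At M2, all 77 were called higher, against a background of 24.6%, and 0 lower, against 20.4%. The remaining 15 members did not pass the filter, and nothing is read from these counts, since the rule used the wild-type libraries.

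**Figure D1:**
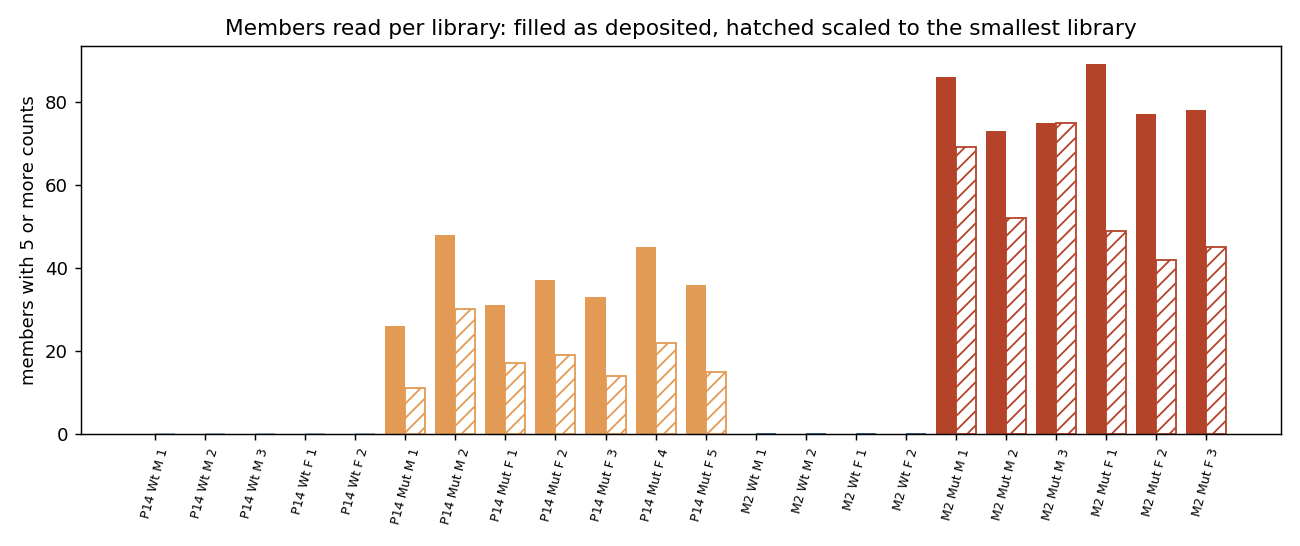
Number of members with 5 or more raw counts in each of the 22 libraries (y axis), with filled bars for counts as deposited and hatched bars for counts scaled to the smallest library. Wild-type libraries have 0, P14 mutant libraries 26 to 48 and M2 mutant libraries 73 to 89.

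Libraries of the same group differed in how many members they showed. In the P14 mutants, male 1 had 26 members with 5 or more counts and male 2 had 48. The 5 females had 31, 37, 33, 45 and 36. Male 2 gave the highest CPM for 40 of the 86 members with any P14 mutant count (46.5%), against 17.5% of all tested genes, and stood at 2 times the next library or more for 19. Male 1 had the largest share of counts on the ribosomal transcript Rn45s of the series (32.6%), against 10.9% to 18.5% in the other P14 libraries. In the M2 mutants the males had 86, 73 and 75 members and the females 89, 77 and 78. After scaling to the smallest library, M2 male 3, these became 69, 52 and 75 in males and 49, 42 and 45 in females. The order of the libraries thus changes with depth, since female 1 was the deepest library and male 3 the shallowest.

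Of the role lists, transcription factors held the most members. By a symbol list, 24 members (26.1%) were transcription factors, against 184 of the 8908 other genes with as low a wild-type sum (2.07%), though homeobox families such as Hox, Pax and Lhx had been set aside. Esx1 and Grhl2, also transcription factors, were not caught by the list. Mean M2 mutant levels of the 24 ran from 0.302 to 8.61 CPM (median 1.07), the median of their P14 mutant means was 0.329 CPM, and 12 reached 5 counts in at least 4 of 7 P14 mutant libraries. Further listed factors are Pou3f3, Pitx1, Alx1, Osr2, Foxl2, Otx1, En2, Prdm6, Sall3, Shox2, En1, Tfap2b, Emx2, Fezf1 and Alx4, beside the 7 described next.

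Sim2, a bHLH-PAS factor of midline development, was at 1.37 CPM in the lowest P14 mutant library, 3.51 at the median and 6.36 in the highest. In M2 mutants it ran from 6.92 to 12.3 CPM with a median of 7.83. All M2 mutant libraries were above all P14 mutant libraries.

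Of the other factors described here, all but Otx2 overlapped between the ages. Tfap2a, a factor of neural crest and epidermis, ran from 0.842 to 2.12 CPM (median 1.09) at P14 and from 0.846 to 1.30 (median 1.14) at M2. Sp8, a zinc finger factor of the limb bud ridge, ran from 0.928 to 1.58 CPM (median 1.18) at P14 and from 0.231 to 1.27 (median 0.949) at M2. Gsc, the organizer factor goosecoid, ran from 0.523 to 1.97 CPM (median 1.28) at P14 and from 0.587 to 1.69 (median 1.21) at M2. In all 3 the ages overlapped, and each was read in all 7 P14 mutant libraries. Gsc, and the 3 factors that follow, were chosen after their values were seen. Dmrta2 was higher at P14, at 0.725 to 1.79 CPM (median 1.11), than at M2, at 0.321 to 0.786 (median 0.561), and the ranges overlapped only between 0.725 and 0.786. Otx2, a factor of the anterior head, ran from 0 to 0.663 CPM (median 0.0614) at P14 and from 0.801 to 4.03 (median 2.69) at M2. Isl1, a LIM-homeodomain factor of motor neurons and heart, ran from 0 to 0.928 CPM (median 0.0712) at P14 and from 0.423 to 2.49 (median 0.643) at M2. In Otx2 the ages did not overlap, and in Isl1 they did.

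**Figure D2:**
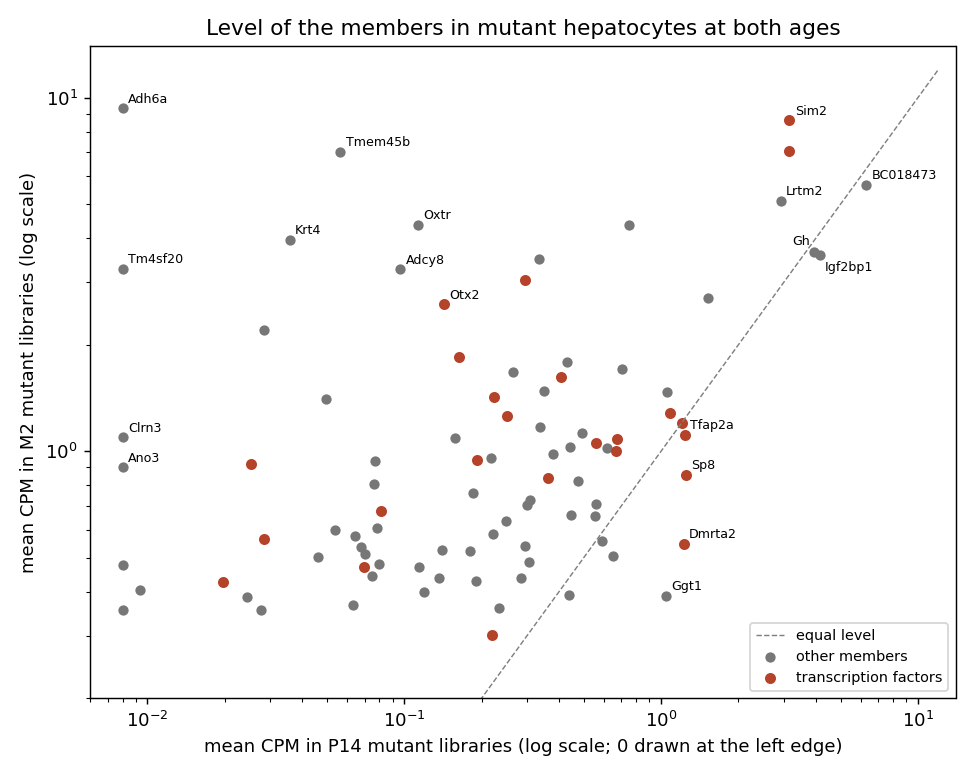
Mean CPM of each of the 92 members in P14 mutant (x axis) and M2 mutant (y axis) libraries on log axes, with transcription factors in red, other members in grey, and equality as a dashed line. Members at 0 in all P14 mutant libraries sit at the left edge, and 81 members lie above the line and 11 below.

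Of the list of secreted ligands, 1 of 293 genes (0.341%) was a member, where 92 of 24422 entries in the whole count table were. The Wnt ligands and their antagonists had been set aside by symbol. Tnfsf15, a cytokine of the tumour necrosis factor family, was that gene. It was at 0 in 4 of 7 P14 mutant libraries, with at most 2 counts in the others (0.210 CPM in male 1), and ran from 0.623 to 2.37 CPM (median 1.31) at M2. The cytokine Lif and the hormone Gh escaped that list by their symbols. Gh, the growth hormone made by the pituitary, ran from 0.783 to 9.69 CPM (median 3.47) at P14 and from 1.04 to 4.98 (median 3.96) at M2, on 0 counts in all 9 wild-type libraries. The ages overlapped fully, with means of 3.94 ± 3.11 CPM (SD, n = 7) and 3.65 ± 1.36 CPM (SD, n = 6).

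Of the cell-surface receptor list, 5 members were found, Oxtr, Lpar3, Lingo3, Ccr6 and Mchr1. Oxtr had no count in 5 of 7 P14 mutant libraries, 0.0614 CPM in female 2 and 0.729 CPM in male 2, and ran from 0.848 to 9.24 CPM (median 3.44) at M2. Lpar3, a receptor for lysophosphatidic acid, ran from 0.142 to 0.737 CPM (median 0.398) at P14 and from 1.45 to 2.01 (median 1.83) at M2. The M2 mutant libraries lay above the P14 mutant libraries in both genes. Lingo3, a leucine-rich repeat protein of the nervous system, ran from 0.259 to 1.42 CPM (median 0.331) at P14 and from 0.231 to 1.15 (median 0.702) at M2, and there the ages overlapped.

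Channels and transporters gave 6 members out of 861 listed genes (0.697%). Of the 6, 2 reached 5 counts in at least 4 P14 mutant libraries. Slc36a2, an amino acid transporter, ran from 0.369 to 0.881 CPM (median 0.570) at P14 and from 0.356 to 1.61 (median 1.01) at M2. Ano3, of the anoctamin family, had no count in any P14 mutant library and ran from 0.118 to 1.30 CPM (median 1.05) at M2. Slc15a1, the peptide transporter of the intestinal brush border, ran from 0 to 0.265 CPM (median 0.0585) at P14 and from 0 to 2.61 (median 0.583) at M2. The other 3 were Cacna2d4, Slc9a2 and Kcnu1.

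Of 311 listed adhesion and synaptic organisers, 3 (0.965%) were members. Among them Elfn1, a postsynaptic leucine-rich repeat protein, was at 0.410 to 2.85 CPM (median 1.16) in P14 mutants and 1.66 to 4.17 (median 2.59) in M2 mutants. The cadherins Cdh9 and Cdh19 had at most 1 count in any P14 mutant library. Cdh9 ran from 0 to 0.592 CPM (median 0.465) at M2 and Cdh19 from 0.0605 to 0.948 (median 0.326). The cytoskeletal list held 3 members among 648 genes (0.463%), Krt4, Lrrc4 and Actc1. Lrrc4, a netrin-G ligand at synapses that a pattern placed among cytoskeletal genes, ran from 0.199 to 1.17 CPM (median 0.414) at P14 and from 0 to 2.48 (median 0.349) at M2. Actc1, the cardiac actin, ran from 0 to 0.311 CPM (median 0.0712) at P14 and from 0.196 to 0.615 (median 0.418) at M2. No member came from the lists of extracellular matrix, germ line or immune effector genes. These lists go by symbol, and 40 members fall in none of the role lists, so genes of these classes may have been missed.

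A list of symbols typical of non-coding RNA gave 10 members out of 4840 entries (0.207%). Of these members, 6030419C18Rik is annotated as protein-coding. The 3 described here are annotated as long non-coding RNA. BC018473 ran from 3.18 to 9.22 CPM (median 6.21) at P14 and from 3.53 to 9.88 (median 4.93) at M2. The means were 6.28 ± 1.93 CPM (SD, n = 7) and 5.68 ± 2.55 CPM (SD, n = 6), so the ages did not separate. Foxl2os, antisense to Foxl2, ran from 0.262 to 1.79 CPM (median 0.499) at P14 and from 2.38 to 6.65 (median 4.21) at M2, with no overlap. Gm9926 ran from 0.0585 to 0.327 CPM (median 0.123) at P14 and from 0.564 to 2.06 (median 0.915) at M2, with no overlap.

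The remaining named members have separate functions. Igf2bp1, an RNA-binding protein of fetal tissues, ran from 3.07 to 6.55 CPM (median 3.78) at P14 and from 1.75 to 5.44 (median 3.58) at M2. Lrtm2, a leucine-rich repeat membrane protein, ran from 2.09 to 3.51 CPM (median 3.05) at P14 and from 1.28 to 8.85 (median 5.29) at M2. Both overlapped between the ages. Tmem45b, a transmembrane protein, ran from 0 to 0.265 CPM (median 0) at P14 and from 2.41 to 9.86 (median 7.55) at M2. Adh6a had no count in any of the 7 P14 mutant libraries and was at 17.1, 12.7 and 9.24 CPM in the M2 males and at 12.1, 1.63 and 3.30 in the M2 females. Against a floor of 3 counts over the P14 mutant group (0.0281 CPM), its M2 mutant mean of 9.34 ± 5.92 CPM (SD, n = 6) was at least 332-fold higher. The same bound was 116-fold for Tm4sf20, 38.8-fold for Clrn3, 32.0-fold for Ano3, 17.0-fold for Mgat4c and 12.6-fold for Cdh19, the other members with no P14 mutant count.

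**Figure D3:**
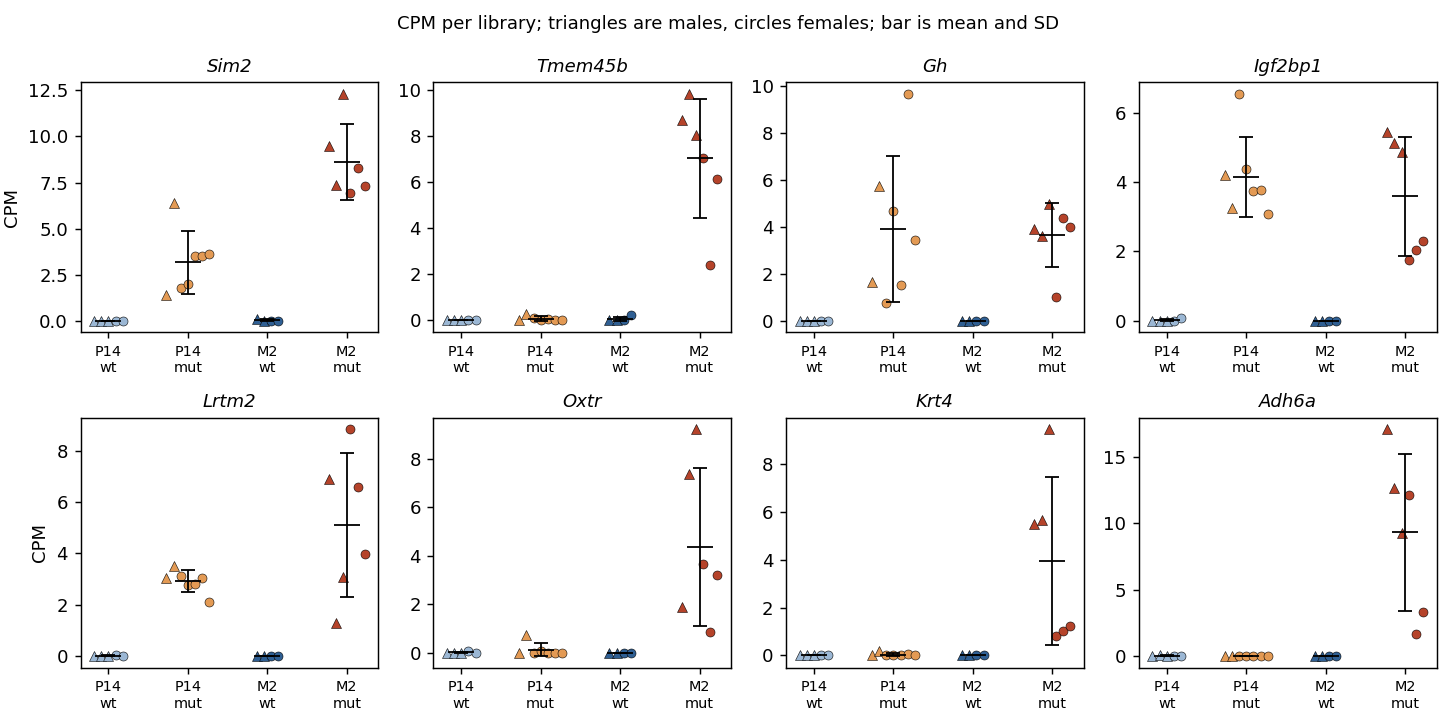
CPM per library (y axis) of 8 members in P14 and M2 wild-type and mutant hepatocytes, with triangles for males, circles for females and bars for the mean and SD. Sim2, Tmem45b, Oxtr, Krt4 and Adh6a are higher in M2 than in P14 mutants, while Gh, Igf2bp1 and Lrtm2 overlap between the ages.

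Over the whole set, 81 members had a higher mean in M2 than in P14 mutants and 11 a lower one, with a median ratio of 4.05 and more than 10-fold in 26. The 11 lower members are BC018473, Dmrta2, Ggt1, Gh, Grhl2, Gsc, Igf2bp1, Prss16, Raet1a, Sp8 and Tfap2a. Of 77 tested members, 43 were called higher at M2 and 2 lower, Dmrta2 and Ggt1, where 19.9% of all tested genes were called in each direction. The count of 2 lower became 1 or 0 in 20 of 26 other settings, with 1 in DESeq2 and 0 without P14 mutant male 1. Since the rule demanded reads in M2 mutants, this lean towards M2 comes in part from the choice of members.

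Sexes could be compared by a contrast the rule did not use, although its demand for 4 of 6 libraries means that every member reached 5 counts in both sexes of M2 mutants. In M2 mutants, 4 of 77 tested members were called higher in males, against a background of 1.13% of all tested genes, and 0 in females, against 0.682%, in edgeR's quasi-likelihood test with Benjamini-Hochberg adjustment over 13493 genes. At an unadjusted p under 0.05 there were 15 members higher in males and 1 in females. The share of all tested genes at that limit was not counted, so nothing is read from these numbers. The median difference over the members was 0.45 on the log2 scale, against 0.06 over all tested genes. In 22 members (23.9%) all 3 males lay above all 3 females in CPM, against 9.6% of tested genes, and in 2 (2.17%), Tff2 and 2610100L16Rik, all females lay above all males, against 5.72%.

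Krt4, a keratin of stratified mucosal epithelia, was at 5.50, 5.69 and 9.48 CPM in the M2 mutant males and at 0.831, 1.04 and 1.23 in the females. The sexes did not overlap. The difference was 2.74 ± 0.45 (SE) on the log2 scale, with an edgeR adjusted p of 0.00382. Tm4sf20, a 4-transmembrane protein known from intestine, was at 8.83, 3.13 and 7.23 CPM in males and at 0.327, 0 and 0.154 in females. Its log2 difference was 5.01 ± 0.73 (SE), edgeR adjusted p = 0.00722. Tmeff2 was at 4.35, 8.33 and 5.81 CPM in males and at 1.13, 0.783 and 0.538 in females, a log2 difference of 2.85 ± 0.63 (SE), edgeR adjusted p = 0.0295. Igf2bp1 was at 5.44, 5.13 and 4.86 CPM in males and at 1.75, 2.02 and 2.31 in females, a log2 difference of 1.36 ± 0.32 (SE), edgeR adjusted p = 0.0376. In each gene every male was above every female. The Tmeff2 call was lost without M2 mutant male 2 (adjusted p = 0.146), female 1 (0.0939), female 2 (0.129) or female 3 (0.137), and the Igf2bp1 call in 15 of 26 other settings (adjusted p = 0.0529 to 0.216). The Tm4sf20 call was lost in DESeq2 (adjusted p = 0.696).

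In P14 mutants no member was called between the sexes in either direction, where 0.0667% and 0.00741% of tested genes were called. The edgeR test gave 13 members higher in males and 1 in females at an unadjusted p under 0.05. Here too the share of all tested genes was not counted, and nothing is read from these numbers. DESeq2 also called 0 in each direction. Only 2 male libraries enter there, and male 2 is the library with the highest level of many members. Igf2bp1 differed by -0.21 on the log2 scale between P14 males and females (edgeR adjusted p = 0.939), Tmeff2 by 0.14 (edgeR adjusted p = 0.990) and Krt4 by 2.64 (edgeR adjusted p = 0.772), the last from at most 3 counts in a library. Tm4sf20 had no count at P14. Whether the sex difference changed with age was not tested.

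**Figure D4:**
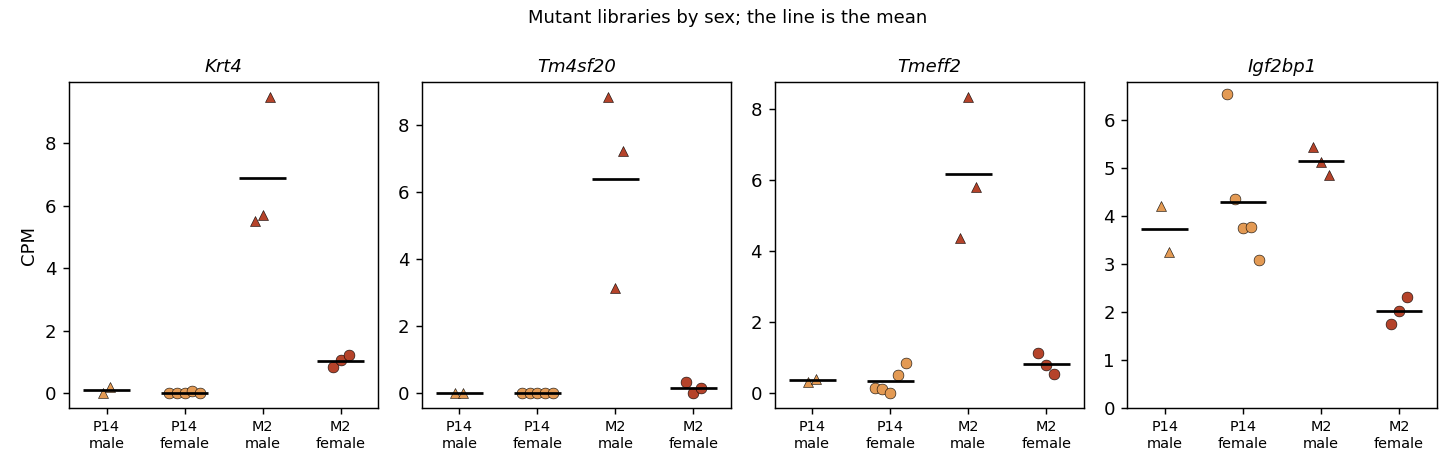
CPM per mutant library (y axis) by age and sex for the 4 members called between M2 males and females, with the line at the mean. At M2 each male is above each female in all 4, and at P14 Igf2bp1 runs from 3.07 to 6.55 CPM with the sexes mixed.

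The summed CPM of the members was also higher in M2 males, at 182, 152 and 180, than in females, at 124, 104 and 115. That sum is weighted to the members with the most reads. Counted by gene, 70.7% of members had their highest M2 mutant CPM in a male, near the 67.7% of all tested genes. In 9 of the 11 marker lists the summed CPM overlapped between these sexes, for example at 115 to 235 CPM in males and 71.7 to 148 in females for 10 cholangiocyte and progenitor markers, and at 212 to 684 and 318 to 394 for Kupffer cell and macrophage markers. The other 2 lists did not overlap and were higher in males, as the members were. Erythroid markers summed to 20.1 to 36.4 CPM in males and 7.84 to 14.5 in females, with 1 of 2 tested called higher in males, and neuron and Schwann cell markers to 25.6 to 32.9 and 15.4 to 20.7, with 0 of 4 called. The part of any of these cells in the sex difference was not tested.

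Several members lie next to each other. In gene order on GRCm38, 13 of the 91 members that could be placed (14.3%) had an adjacent gene that also met the count limits. Of 8808 other genes with as low a wild-type sum, 91 had (1.03%). Both shares rest on the rule that chose the members and are only described. The 13 count each of the 5 pairs of members from both ends, which cannot happen among the other genes. Pairs of 2 members were Actc1 with C130080G10Rik, B4galnt2 with Igf2bp1, Cacna2d4 with Lrtm2, Cnpy1 with En2, and Foxl2 with Foxl2os. Gm20554 lies next to Irx2, Mira next to Hoxa7 and Sgpp2 next to Pax3, which were set aside by symbol. Cacna2d4 and Lrtm2 overlap on opposite strands, as do Foxl2 and Foxl2os, and Actc1 and C130080G10Rik lie 786 bases apart on opposite strands. The strand setting of the counting is not given in the sources used here, so reads of these partners may not be told apart. The upstream windows of Foxl2 and Foxl2os share 204 bases. The members are spread over 20 chromosomes, and 81 are annotated as protein-coding and 10 as long non-coding RNA.

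Some members are known from epithelia of the gut and from stratified epithelia. Besides Krt4, Tm4sf20 and Slc15a1 these are Fabp6, the ileal bile acid carrier, Tff2, a trefoil peptide of stomach mucus, Sprr1a and Scel of the cornified envelope, and the oxidase Duox2. The choice of these 5 came after seeing their values. Fabp6 ran from 0 to 0.199 CPM (median 0) at P14 and from 0.231 to 3.92 (median 2.66) at M2. Tff2 reached at most 0.133 CPM at P14 and ran from 0.0801 to 1.54 (median 0.389) at M2. Sprr1a ran from 0.0585 to 0.622 CPM (median 0.199) and from 0.384 to 4.11 (median 0.682) at M2, Scel from 0.0712 to 0.316 (median 0.176) and from 0.326 to 1.45 (median 0.701), and Duox2 from 0 to 0.327 (median 0.0614) and from 0.0891 to 0.829 (median 0.461).

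Markers of some other liver cells, but not of all, were higher in M2 mutants than in M2 wild type. Over all tested genes, 24.6% were called higher and 20.4% lower at M2, and 11.8% and 6.89% at P14. No member is in any of the marker lists. Nothing is read from this, since the rule asked for almost no wild-type counts and most listed markers had some. Markers whose symbols start with Sox or Col had also been set aside. Bile duct and progenitor markers summed to 13.4 to 26.5 CPM in M2 wild type and 71.7 to 235 in M2 mutants, with 6 of 7 tested called higher, and at P14 to 59.9 to 79.5 and 31.0 to 82.5 CPM with 1 called higher and 1 lower. Of the stellate cell and fibroblast list, 11 of 14 were called higher at M2 (127 to 205 CPM against 189 to 596) and 1 at P14. Of the Kupffer cell and macrophage list, all 11 were called higher at M2 (156 to 205 against 212 to 684) and 3 at P14. Of the lymphocyte lists, 7 of 9 T and NK cell markers and 5 of 5 B cell markers were called higher at M2 and 0 at P14. Of the endothelial list, 1 of 11 was called higher at M2 (148 to 222 against 118 to 466) and 2 at P14. Granulocyte markers, 7 of 8, were called higher at both ages. Of the neuron and Schwann cell list, 1 of 4 was called higher at each age, and Snap25, Sox10 and S100b were at 0 in all M2 mutant libraries. Mesothelial markers gave 1 of 4 at each age, and erythroid markers 0 of 2, with 1 called lower at each age and the 6 globin entries at 0 in both genotypes at both ages. Hepatocyte markers (170981 to 193508 CPM in M2 wild type, 122371 to 225452 in M2 mutants) had 0 of 9 called higher at either age, with 3 called lower at M2 and 2 at P14. No other marker was called lower at either age. In bulk samples more cells of a type and more RNA per cell cannot be told apart. The part of these cells in the level of the members was not tested.

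The other genes of the pathway were described from lists of Polycomb subunits. Of 11 PRC2 subunit genes, 0 were called higher at either age and 4 lower at each, Ezh1, Ezh2, Rbbp4 and Rbbp7 at P14 and Eed, Ezh1, Rbbp4 and Rbbp7 at M2. The list's median was -0.06 at P14 and -0.22 at M2 on the log2 scale, against 0.03 over all genes at each age. Of 22 PRC1 subunit genes, 5 were called higher and 1 lower at P14, and 5 higher and 3 lower at M2. The shares of all tested genes called higher and lower were 11.8% and 6.89% at P14 and 24.6% and 20.4% at M2, and nothing particular to these lists is read from their counts. PRC1 is the partner complex of PRC2 in silencing, and its subunits Bmi1 and Cbx6 were among those called higher at both ages. Neither direction was called for the 3 H3K27 demethylases tested at either age.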

How the data were processed

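RNA was measured in 22 libraries of mouse hepatocytes. Per the labels, libraries were polyA-selected, directional and read as single ends. The authors deposited a table of raw counts, whole numbers of reads per gene symbol. The build mm9 and the tools bedtools, DESeq2 1.14.1, HTSeq 0.6.1p1 and STAR 2.4.2a are named in the submitters' processing notes. What each did, which annotation was used and how strand was treated in counting is not given in the sources used here. A second deposited table, of normalized values, was not used.

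Library totals ran from 6946003 to 27505582 counts, so 3 counts over the P14 mutant group equal 0.0281 CPM and 3 over the wild-type libraries 0.0237 CPM. Such a floor takes in counting error alone, because the reads carry no molecular identifiers and may be copies of 1 molecule. In R 4.3.3, edgeR 4.0.16 kept 13493 genes by filterByExpr, scaled them by TMM (factors 0.765 to 1.24), and fitted 1 quasi-likelihood model with 8 groups of age, genotype and sex to all libraries (14 residual degrees of freedom). The fit lets groups of 2 libraries borrow the spread of the rest. Two-sided p-values were adjusted by Benjamini-Hochberg over all genes tested and called below 0.05, and contrasts of genotype or age weight the sexes equally. The script was tested on simulated data. CPM uses TMM-scaled totals over all genes. Scaled counts are counts multiplied down to the total of the smallest library. The labels mark the replicates as bio but do not say whether they came from different animals. A p-value therefore reflects only how these libraries vary, which may be in part technical. As to pairing, deviations from the group means had r above 0.1 in 16 of 62 pairs of libraries that share a replicate number (median -0.00887), and the libraries were treated as unpaired. DESeq2 1.42.0, its size-factor scaling (RLE), no filter, a replicate block and leaving out each library were the alternatives.

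The members, the role lists (by symbol pattern), the Polycomb lists and the cell type markers were chosen with earlier results of these data known, and 1 symbol pattern and the handling of non-coding symbols were corrected after the counts were seen. By rule, the named members are the 12 with the most CPM in M2 mutants, the 8 with the most in P14 mutants, up to 3 per role list, the 5 at 0 in P14 mutants with the most CPM, those called between the sexes, the 3 highest and 3 lowest ratios of P14 to M2 mutant level, and the first 3 by symbol on each side of a threshold. The rule gives 30 members beside the thresholds, of which 2 are not reported here. Members named only in listings, such as those of pairs and of the 11 with lower M2 means, fall outside it. Of the members, 91 matched RefSeq symbols on GRCm38, which served for gene order, type and upstream windows. Coordinates are on that build and were not converted.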

Additional observations from a re-analysis of the deposited data

Results flagged for a closer look

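Over named members and the summed CPM of all members, 52 groups of 6 or 7 mutant libraries were examined by Dixon's ratio. It looks for a library apart from the rest, and 10 groups were marked. For normally distributed values chance marks about 1 in 20. Several groups hold counts near 0, where that rate does not hold, so no excess is read from the 10. In P14 mutants, male 2 stood high for Krt4 (0.199 CPM, 3 counts, nearest 0.0518), Oxtr (0.729 CPM, 11 counts, nearest 0.0614) and Tmem45b (0.265 CPM, 4 counts, nearest 0.0712). Female 1 stood high for Igf2bp1 (6.55 CPM, nearest 4.36) and Lingo3 (1.42 CPM, 20 counts, nearest 0.736), and male 1 for Tnfsf15 (0.210 CPM, 2 counts, nearest 0.0712). In M2 mutants, male 3 stood high for Cdh19 (0.948 CPM, 8 counts, nearest 0.391) and Slc15a1 (2.61 CPM, 22 counts, nearest 0.907), and female 2 for Lrrc4 (2.48 CPM, 38 counts, nearest 0.605). Female 1 stood low for Gh (1.04 CPM, nearest 3.61).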

How the results depend on the processing

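No result reversed its direction in the alternatives run. The limits decide the size of the set: scaling counts to the smallest library left 64 members, 45 of them among the 92, a wild-type sum of 0 left 38, and leaving out 1 M2 mutant library, with 4 of the 5 others still asked for, left 67 to 80. Members with 5 or more counts in at least 4 P14 mutant libraries fell from 36 to 15 on scaled counts and were 28 to 36 when 1 library was left out.

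Members called higher in M2 mutant males were 4, 3 in DESeq2 (which gave 40 members an adjusted p), and 2 to 6 without 1 library. There were 2 without M2 mutant male 2, female 2 or female 3, and 6 without male 3. Members called higher in females were 0, and 0 to 1 without 1 library, with 1 when M2 mutant male 1 or male 3 was left out. Members called lower at M2 than at P14 in mutants were 2, but 1 in DESeq2, with RLE scaling, without the filter and with the replicate block, and 0 to 2 without 1 library (0 without P14 mutant male 1). Members called higher at M2 than P14 were 43 and 37 to 53 without 1 library, those higher in P14 mutants than in wild type 48 and 41 to 53, and those at M2 77 and 70 to 89. The cause of these shifts was not tested.

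With the replicate block, whose numbers do not pair the libraries, 46 members were called higher in P14 mutants, 41 at M2 against P14, and 3 in M2 males, Igf2bp1 losing its call (adjusted p = 0.0578). Krt4 kept its call in all 26 settings. Most members hold under 1 CPM, so counting error limits values of single libraries, and a count of 0 allows up to 3.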

Other observations

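Ifi202b, an interferon-induced gene, split the mutant libraries in a way that follows neither age nor sex (chosen after its values were seen). It had 20 and 22 counts in the P14 mutant males and 0, 23, 15, 16 and 11 in the females. In the M2 mutants it had 32, 0 and 0 counts in the males and 59, 43 and 30 in the females. Wild-type libraries had none. The libraries at 0 are thus P14 female 1 and M2 males 2 and 3. The cause of this split, including any difference in genetic background between the libraries, was not tested.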
